A study of Mus musculus with 56 samples.

Results

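Gene expression microarrays of 2 mouse brain regions were used to follow 9 genes of inhibitory neurons: Gad1, Gad2 and Slc32a1, which make and package the transmitter GABA; Dlx1, Dlx2 and Lhx6, transcription factors of developing inhibitory neurons; and Pvalb, Calb1 and Calb2, calcium-binding proteins that mark classes of interneurons. The members were all probe sets annotated to 1 of these 9 symbols and to no other gene, which gave 18 probe sets. They were 9 of the 18182 genes that had a probe set of their own on the array. A probe set is a group of short oligonucleotides that together give 1 intensity value for a transcript.

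The arrays held total RNA from 2 dissected brain regions of inbred mouse strains, 29 arrays for prefrontal cortex and 27 for nucleus accumbens, with 1 array per strain and region. Each array carried RNA pooled from 3 male mice of 1 strain aged 8 to 10 weeks, with no treatment or transgene named in the labels. Both regions were measured in C57BL/6J, 129S1/SvImJ, SM/J, C58/J, A/J, WSB/EiJ, C57BR/cdJ, BALB/cByJ, SJL/J, AKR/J, DBA/2J, PL/J, C3H/HeJ, RIIIS/J, CBA/J, NZW/LacJ, CE/J, SWR/J, FVB/NJ, NON/LtJ, I/LnJ, BUB/BnJ, NOD/LtJ, KK/HlJ, P/J, BTBR T+ tf/J and MA/MyJ, and MRL/MpJ and NZO/HILtJ were measured in cortex only. The pool is the unit of replication, so differences between strains, between pools and between dissections enter the spread together.

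GABA is made from glutamate by the glutamate decarboxylases that Gad1 (GAD67) and Gad2 (GAD65) encode, and the vesicular transporter encoded by Slc32a1 (VGAT) loads it into synaptic vesicles. In the cortex GABA is the transmitter of local interneurons, which are a minority among excitatory pyramidal cells. In the accumbens, which belongs to the ventral striatum, the principal cells themselves, the spiny projection neurons, release GABA, and interneurons stand beside them. Parvalbumin marks fast-spiking interneurons, calretinin (Calb2) another interneuron class, and calbindin (Calb1) is made by some interneurons and by many spiny projection neurons.

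The promoter sequences of Gad1, Gad2 and Slc32a1, whose transcripts were all brighter in accumbens, and of Pvalb, whose transcript was dimmer there, are shown because these 4 genes had the region differences with no overlap between the regions at their brightest probe set, beside Lhx6. The share of all tested probe sets with no overlap was not counted, so the lack of overlap is only a description. Each run is the 250 bases before an annotated start, 5′ to 3′ on the gene's strand, from RefSeq (GRCm38.p6); Pvalb has 2 annotated starts in that table. Capitals mark matches, on either strand, to TATAAA (the TATA box), CCAAT (the CCAAT box), GGGCGG (the GC box) or TAATTA (the core that homeodomain proteins such as those of the Dlx and Lhx families recognise); the matches found did not overlap one another.
Gad1, chr2:70561879-70562128, plus strand: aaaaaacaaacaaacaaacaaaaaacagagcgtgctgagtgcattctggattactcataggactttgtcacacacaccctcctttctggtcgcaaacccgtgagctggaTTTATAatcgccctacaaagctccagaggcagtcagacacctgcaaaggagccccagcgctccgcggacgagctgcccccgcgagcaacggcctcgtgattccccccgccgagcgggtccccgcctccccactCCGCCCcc
Gad2, chr2:22622077-22622326, plus strand: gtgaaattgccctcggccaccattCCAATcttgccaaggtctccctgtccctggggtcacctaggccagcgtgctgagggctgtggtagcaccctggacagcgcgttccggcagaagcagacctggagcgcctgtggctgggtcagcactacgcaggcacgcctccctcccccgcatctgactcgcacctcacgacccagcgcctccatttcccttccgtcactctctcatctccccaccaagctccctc
Slc32a1, chr2:158610508-158610757, plus strand: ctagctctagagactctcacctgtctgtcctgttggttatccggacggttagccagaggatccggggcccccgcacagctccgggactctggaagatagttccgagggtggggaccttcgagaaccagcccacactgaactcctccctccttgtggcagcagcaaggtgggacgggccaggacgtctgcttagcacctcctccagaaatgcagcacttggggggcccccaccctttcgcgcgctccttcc
Pvalb, chr15:78206401-78206650, minus strand: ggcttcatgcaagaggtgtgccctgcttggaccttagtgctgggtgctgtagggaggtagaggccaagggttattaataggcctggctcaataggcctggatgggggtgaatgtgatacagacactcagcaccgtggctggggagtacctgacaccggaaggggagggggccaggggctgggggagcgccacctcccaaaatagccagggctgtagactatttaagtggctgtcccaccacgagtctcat
Pvalb, chr15:78204238-78204487, minus strand: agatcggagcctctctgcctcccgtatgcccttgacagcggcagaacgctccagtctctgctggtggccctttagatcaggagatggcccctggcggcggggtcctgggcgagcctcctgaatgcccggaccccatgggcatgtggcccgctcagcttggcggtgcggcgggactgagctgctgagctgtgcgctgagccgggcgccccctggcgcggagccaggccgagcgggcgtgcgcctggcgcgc

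The Gad1 window held 1 TATAAA match and 1 GGGCGG match, the Gad2 window 1 CCAAT match, and the Slc32a1 window and both Pvalb windows none of the 4. Counted from the annotated start, the Gad1 matches began at -141 (TATAAA, on the opposite strand) and -8 (GGGCGG), and the Gad2 match at -226. These are matches of letters only, and whether they act as promoter elements was not tested. Among 32851 promoter windows of the same length, 12.4% held TATAAA, 33.8% CCAAT, 32.7% GGGCGG and 4.84% TAATTA on either strand. The share of G and C was 58% in the Gad1 window, 64% in that of Gad2, 62.4% in that of Slc32a1 and 58.4% and 71.6% in the 2 of Pvalb, in the order printed, against a median of 52.4% over all windows. Of the 9 genes, 7 had an entry in the promoter table, and 6 of these (Gad1, Gad2, Slc32a1, Dlx1, Dlx2 and Lhx6) lie on chromosome 2, with Pvalb on chromosome 15. No TAATTA match was found in the windows of these 7 genes.

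The deposited values were probe set intensities on a linear scale, and log2 of them is used throughout. Tests were limited to probe sets that exceeded log2 5 on 13 or more of the 54 arrays of strains with both regions. Of the 18 member probe sets, 12 passed, for 8 genes. The 6 others were 3 of the 4 for Slc32a1, 1 of 2 for Lhx6, 1 of 4 for Calb1 and the only one for Calb2, which was above log2 5 on 12 of the 54 paired arrays, just under the limit of 13. Where a gene had several probe sets the brightest represents it, and the others are given beside it; the level of 1 probe set was never set against that of another.

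The labelled regions carried their own markers. Of 21 tested genes of spiny projection neurons, 21 were higher in accumbens, and of 16 tested genes of cortical excitatory neurons, 16 were lower. The mean of the first list minus that of the second lay between -3.53 and -2.89 on 28 cortex arrays and at 1.28 on the MA/MyJ cortex array, and between 2.52 (BALB/cByJ) and 5.73 on the accumbens arrays. The 12 tested oligodendrocyte genes were all higher in accumbens, with a median difference of 1.30. Median intensity, here on the linear scale and not in log2, was 9.93 to 10.42 on cortex arrays and 9.66 to 10.13 on accumbens arrays. The value at the lowest 0.1% of probe sets was log2 1.26 to 1.30 in cortex and 1.37 to 1.40 in accumbens with no overlap, so the regions appear to have been normalized apart, and an effect of region and one of the normalization run cannot be told apart. The median region difference over all tested probe sets was 0.13 on the log2 scale, and 0.02 after the arrays were quantile-normalized together.

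Between the regions, 10 of the 12 tested member probe sets, for 6 genes, were higher in accumbens, and 2, those of Dlx1 and Pvalb, were lower, at an adjusted p under 0.05 (limma with strain as a block, Benjamini-Hochberg over 16056 probe sets). Over all 16056 probe sets, 51.8% were called higher and 31.5% lower, so most features differed. The split of all features depended on the scaling: 8320 were higher and 5060 lower as deposited, 6839 and 6335 after quantile normalization over both regions, and 6659 and 6521 after each array was centred on its median, while the members' counts of 10 and 2 were the same under both. With a difference of at least 2-fold, 8 of the 12 member probe sets, for 5 genes, were higher and 1 was lower, against 8.96% and 6.59% of all probe sets. In bulk tissue, fewer cells of a type and less RNA per cell cannot be told apart.

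The genes that make and load GABA were all brighter in accumbens in every strain. Gad1 was between log2 10.82 and 11.71 on the 29 cortex arrays, with a median of 11.13, and between 12.15 and 12.55 on the 27 accumbens arrays, with a median of 12.37. The regions did not overlap, and the spread between strains was small in both (SD 0.18 and 0.12). The difference was 1.21 ± 0.04 (SE, n = 27 strains) on the log2 scale, 2.32-fold, and higher in 27 of 27 strains (limma, adjusted p = 1.65e-21). The second Gad1 probe set gave 1.61 ± 0.10 (SE), also higher in 27 of 27 strains, although its regions overlapped (7.16 to 8.86 in cortex, 8.82 to 10.25 in accumbens).

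Gad2, which encodes the decarboxylase concentrated at synaptic terminals, differed more. Its intensity ran from log2 7.41 to 8.22 in cortex, with a median of 7.71, and from 9.70 to 10.55 in accumbens, with a median of 10.20. Every accumbens array was brighter than every cortex array. The difference was 2.44 ± 0.05 (SE, n = 27 strains), 5.43-fold (limma, adjusted p = 2.33e-28). The dimmer Gad2 probe set was above log2 5 on only 1 of 29 cortex arrays (C58/J, 5.31) and on all 27 accumbens arrays (7.22 to 8.47), a difference of at least 7.62-fold when the cortex mean is set to log2 5.

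Slc32a1 lay between log2 7.41 and 9.03 in cortex, with a median of 7.60, and between 9.47 (RIIIS/J) and 10.70 (BALB/cByJ) in accumbens, with a median of 10.17. The top cortex value belonged to MA/MyJ, and the next, 129S1/SvImJ, was 8.01. The difference was 2.48 ± 0.06 (SE, n = 27 strains), 5.57-fold, and it was smallest in MA/MyJ, at 1.33 (limma, adjusted p = 1.98e-25). The 3 other Slc32a1 probe sets stayed at or below log2 3.29 on every array, near background.

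**Figure D1:**
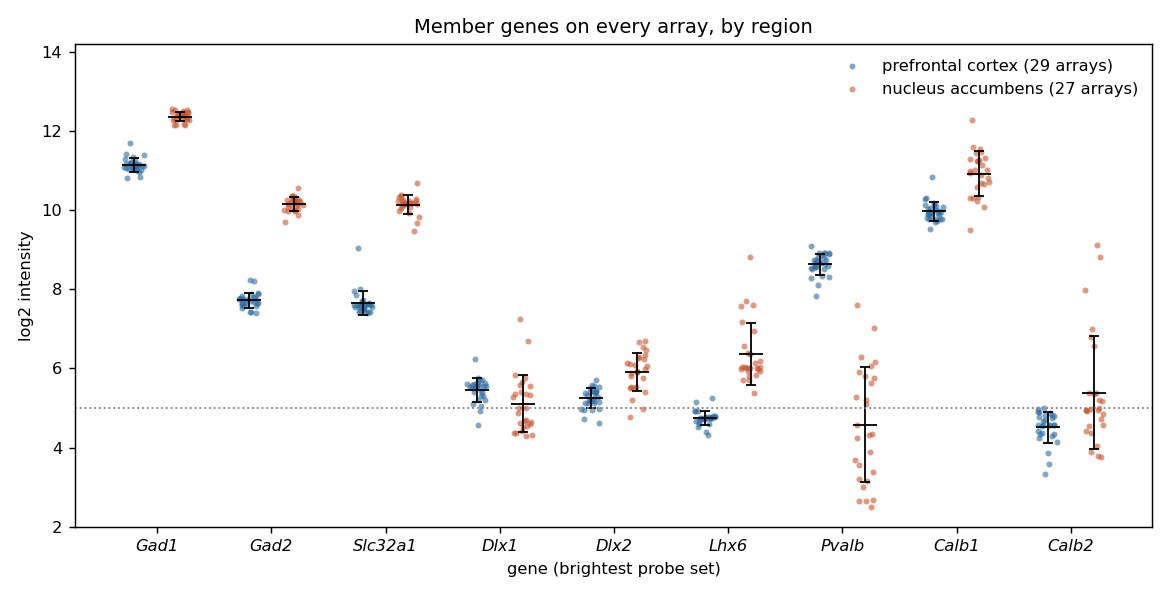
Log2 intensity (y axis) of the brightest probe set of each of the 9 genes (x axis) on 29 prefrontal cortex arrays (blue) and 27 nucleus accumbens arrays (orange); each point is 1 array, black bars are the mean ± SD over arrays, and the dotted line is log2 5. Gad1, Gad2, Slc32a1, Lhx6 and Pvalb show no overlap between regions, and Pvalb and Calb2 have the widest spread among accumbens arrays (SD 1.46 and 1.43). How common such a lack of overlap is among all tested probe sets was not counted.

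Among the transcription factors, Lhx6 and Dlx2 were higher in accumbens and Dlx1 lower. Lhx6, which specifies interneurons born in the medial ganglionic eminence, the embryonic source of parvalbumin and somatostatin cells, was dim in cortex, at log2 4.33 to 5.25 with a median of 4.75 and only 2 of 29 arrays above log2 5. In accumbens it lay between 5.39 and 8.82 with a median of 6.03, above log2 5 on all 27 arrays. The difference was 1.62 ± 0.15 (SE, n = 27 strains), at least 2.58-fold, and higher in 27 of 27 strains (limma, adjusted p = 2.17e-11). The second Lhx6 probe set, under log2 5 on every array, had its highest value on the same accumbens array, BALB/cByJ (4.18).

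Dlx2, a homeodomain factor of ganglionic eminence progenitors, ran from log2 4.62 to 5.70 in cortex (median 5.25) and from 4.77 to 6.70 in accumbens (median 5.93), so the regions overlapped. It was higher in accumbens in 23 of 27 strains, by 0.67 ± 0.10 (SE), or 1.59-fold (limma, adjusted p = 4.15e-07). The 4 strains in the other direction were BTBR T+ tf/J (-0.72), 129S1/SvImJ (-0.19), FVB/NJ (-0.17) and NZW/LacJ (-0.01).

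Dlx1, the neighbouring homeodomain gene, gave the weakest region call. It was at log2 4.56 to 6.23 in cortex (median 5.55) and at 4.29 to 7.26 in accumbens (median 4.99). Dlx1 was above log2 5 on 27 of 29 cortex arrays but on only 13 of 27 accumbens arrays. Its dim levels enter the difference as deposited, so the size of the difference is uncertain. It was lower in accumbens in 20 of 27 strains, by a mean difference of -0.33 ± 0.14 (SE; limma, adjusted p = 0.0298). The 2 highest accumbens values, CE/J at 7.26 and BALB/cByJ at 6.70, were above every cortex array. Leaving out any 1 of 129S1/SvImJ, BTBR T+ tf/J, C58/J, DBA/2J, FVB/NJ or SM/J put the adjusted p between 0.0506 and 0.0528. Without 7 strains, MA/MyJ and the 6 named further on for their septal genes, the difference was -0.57 (limma, adjusted p = 7.37e-05). These 7 were chosen after seeing the data, so this fit is no separate support for the call. Among them CE/J (1.94), BALB/cByJ (1.00), SWR/J (0.45) and NON/LtJ (0.44) had positive Dlx1 differences. I/LnJ (-0.94), MA/MyJ (-0.25) and WSB/EiJ (-0.22) had negative ones. The Dlx1 and Dlx2 differences thus had opposite signs in the mean, and the difference between the 2 genes was not tested.

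The calcium-binding proteins went in different directions. Pvalb had the largest region difference of the 9 genes. Its intensity in cortex was log2 7.82 (C57BL/6J) to 9.10 (PL/J), with a median of 8.66. In accumbens it ran from 2.51 (RIIIS/J) to 7.61 (FVB/NJ), with a median of 4.35, and 12 of 27 arrays were above log2 5. The highest accumbens value was below the lowest cortex value. The difference was -4.07 ± 0.26 (SE, n = 27 strains), lower in 27 of 27 strains and at least 12.6-fold with the accumbens mean set to log2 5 (limma, adjusted p = 4.31e-15). In 15 strains the accumbens value was under log2 5, so only a bound can be given there. With those values set to log2 5, the strain differences ran from -4.10 in PL/J, a bound, to -1.64 in BALB/cByJ and -1.12 in FVB/NJ, both measured.

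Calb1 was high in both regions and moderately higher in accumbens. Its brightest probe set lay between log2 9.53 and 10.85 in cortex (median 9.93) and between 9.50 and 12.28 in accumbens (median 10.99). The accumbens extremes, BALB/cByJ at 9.50 and BTBR T+ tf/J at 12.28, fell outside the cortex range on both sides. The difference was 0.96 ± 0.12 (SE, n = 27 strains), 1.94-fold, and positive in 24 of 27 strains (limma, adjusted p = 2.46e-08); BALB/cByJ (-0.50) and MA/MyJ (-0.19) went clearly the other way. The 2 other tested Calb1 probe sets gave larger differences, both positive in 26 of 27 strains. One gave 1.77 ± 0.18 (SE), 3.42-fold, and the other, above log2 5 on only 5 of 29 cortex arrays, at least 3.87-fold, so the size of the Calb1 difference depends on the probe set and its direction does not.

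Calb2 did not pass the filter on dim values. It was under log2 5 on all 29 cortex arrays (3.35 to 4.99, median 4.58) and between 3.78 and 9.12 in accumbens (median 4.96). It was higher in accumbens in 20 of 27 strains, at least 1.31-fold in the mean (limma with no filter, adjusted p = 0.00582). Its accumbens values fell into a low set and a high tail: BALB/cByJ 9.12, CE/J 8.83, NON/LtJ 7.97, WSB/EiJ 7.0, SWR/J 6.79 and I/LnJ 6.56 stood above the 21 other arrays, which were at 5.38 or less. The mean difference rests on these 6 strains: it was 0.89 on the log2 scale over 27 strains and 0.20 (SD 0.60) over the 21 others, positive in 14 of them, where both region means (4.53 and 4.73) were under log2 5. No test was run over the 21.

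**Figure D2:**
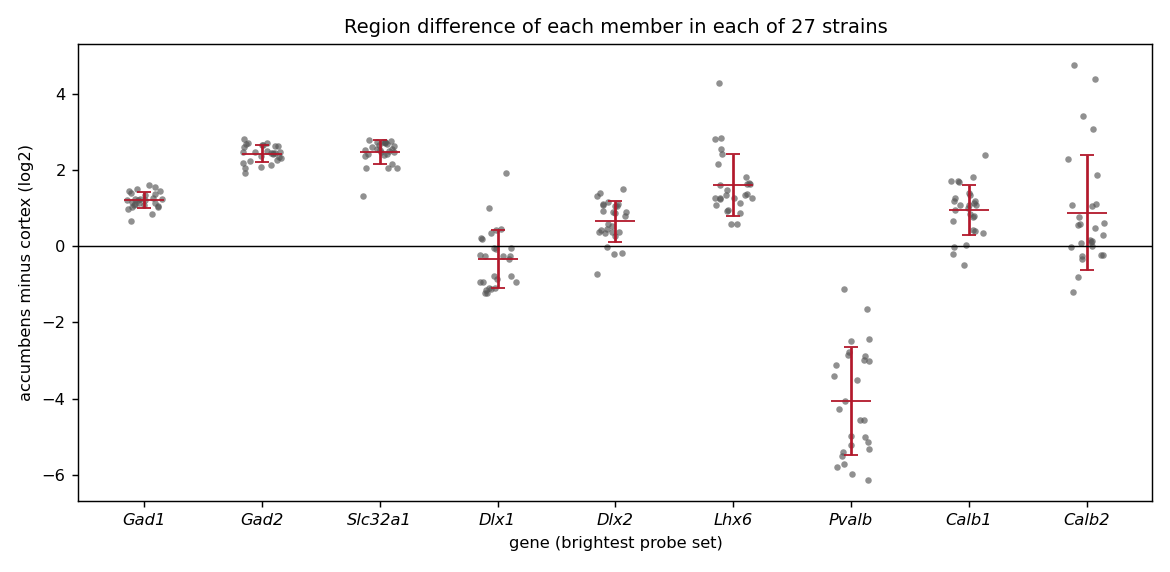
Accumbens minus cortex log2 intensity (y axis) of the brightest probe set of each gene (x axis); each point is 1 of 27 strains, and red bars are the mean ± SD over strains. Gad1, Gad2, Slc32a1 and Lhx6 are above 0 and Pvalb below 0 in all 27 strains. Dlx1, Dlx2, Calb1 and Calb2 have strains on both sides. Levels under log2 5 enter as deposited, which touches Lhx6 and Calb2 in cortex and Pvalb, Calb2 and Dlx1 in accumbens most.

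Ordered by the size of the brightest probe set's difference, upward changes ran Slc32a1 (2.48), Gad2 (2.44), Lhx6 (1.62, or 1.37 with its cortex mean set to log2 5), Gad1 (1.21), Calb1 (0.96) and Dlx2 (0.67). The Slc32a1 and Gad2 values differ by less than either standard error. The order also depends on the probe set. The other tested probe sets gave at least 2.93 for Gad2, 1.61 for Gad1, and 1.77 and at least 1.95 for Calb1. Calb2 was given no place in this order, since its difference was 0.89 as deposited and 0.39 with its cortex mean set to log2 5, on either side of that of Dlx2. Dlx1 and Pvalb stand below 0.

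Other genes of the pathway were counted in the same fit, from lists that the members were not part of. Each list's counts stand against 51.8% called higher and 31.5% lower over all 16056 probe sets. A count near these shares says little about a list. Of 12 tested genes of GABA transport, breakdown and supply, 7 were higher and 5 lower in accumbens, with a median difference of 0.40 against 0.13 over all features. Abat, the transaminase that degrades GABA, was higher by 1.82 ± 0.05 (SE), 3.53-fold, and Aldh5a1, which oxidises the product of that step, by 0.90 ± 0.05. Pdxk, which makes the pyridoxal phosphate cofactor that the decarboxylases and the transaminase both need, was higher by 1.11 ± 0.03. Gphn, the gephyrin scaffold of inhibitory synapses, was higher by 0.68 ± 0.04. Each of these 4 rose in 27 of 27 strains (limma, adjusted p between 1.54e-23 and 2.62e-16). Glul, the astrocyte enzyme that makes glutamine, was among the lower ones, at -0.64 ± 0.04.

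Of 15 tested markers of other interneuron classes, 4 were higher and 10 lower in accumbens, with a median difference of -0.43. Cck fell by 6.07 on the log2 scale, 67.3-fold, and Vip by 5.96, at least 14.3-fold; both encode neuropeptides, and Cck is also made by cortical pyramidal cells. Tac1, the tachykinin precursor that spiny neurons of the direct pathway also make, rose by 4.10, 17.1-fold. Crhbp, which binds corticotropin-releasing hormone, fell by 2.93, at least 3.05-fold. The somatostatin and neuropeptide Y genes, Sst and Npy, fell by 0.52 and 0.44, and Nos1, the neuronal nitric oxide synthase, rose by 0.67 in 27 of 27 strains. All these passed the test (limma, the largest adjusted p being 1.21e-07, for Npy).

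Pvalb's neighbours in function moved mostly with it. Of 16 tested genes of fast-spiking cells and perineuronal nets, 12 were lower and 4 higher in accumbens, with a median of -0.41; after quantile normalization over both regions the counts were 12 and 3. Hapln4, a link protein of the nets, fell by 2.42, Kcnc2, a Kv3 potassium channel of fast-spiking cells, by 2.35, and Cntnap4, a synaptic adhesion protein with an accumbens mean under log2 5, at least 1.10-fold, while Kcnab1, a potassium channel beta subunit, rose by 2.27 (limma, the largest adjusted p of these 4 being 6.56e-10). The Pvalb difference, at -4.07, was larger than that of any of these 16 genes. Of 18 tested neuronal genes for EF-hand calcium-binding proteins, the protein superfamily of Pvalb, Calb1 and Calb2, 7 were higher and 9 lower (6 and 9 after quantile normalization), with a median of -0.15. Necab2 was higher by 2.86, and Ncald lower by 2.45 on the log2 scale, Cabp1 at least 4.35-fold and Necab3 at least 1.63-fold (limma, the largest adjusted p of these 4 being 2.14e-17).

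Of 13 tested transcription factors of the ganglionic eminences, 6 were higher and 5 lower (6 and 6 after quantile normalization), and their median difference was 0.15 (-0.002). Pbx3 and Isl1, factors of striatal projection neurons, were higher by 5.15, at least 21.2-fold, and by 5.04, at least 4.41-fold, and Lhx8, a factor of cholinergic cells, by 3.76, at least 3.56-fold. Satb1, which acts in interneurons and pyramidal cells of the cortex, was lower by 3.46 (limma, the largest adjusted p of these 4 being 3.63e-17). Dlx5, which lies in another Dlx cluster, was higher in 27 of 27 strains, at least 1.38-fold (limma, adjusted p = 2.57e-18), against 23 of 27 strains for Dlx2 and 7 of 27 for Dlx1. The genes named from these lists were those with the largest differences as deposited. With means under log2 5 set to it, Synpr (1.79) would take the place of Crhbp among the 4 largest of the interneuron markers, Kcnc1 (-1.26) that of Cntnap4, S100a10 (-2.22) that of Necab3 and Nr2f1 (-2.45) that of Lhx8.

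Strain differences shared by both regions were not called for any member. The moderated F test of strain called 0 of the 12 member probe sets at an adjusted p under 0.05, and 1, that of Slc32a1, at an unadjusted p under 0.05 (limma, p = 0.0306, adjusted p = 0.107). The adjusted p values of the 12 ran from 0.107 to 0.918. Over all 16056 probe sets 20.1% were called for strain, and 33.8% had an unadjusted p under 0.05. Some genes of the wider lists were called: Adarb2 and Synpr among interneuron markers, Glul, Slc38a3 and Gabbr1 in the GABA list, Zeb2, Tnr and S100b. The strain means of Gad1 over both regions spanned only 0.49 on the log2 scale, from C57BL/6J to MA/MyJ.

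No order of strains shared by cortex and accumbens was detected for the members. With 1 pool per strain and region, that does not show that none exists. For each of the 9 genes the correlation of the 2 regions across 27 strains was computed, and none passed the threshold after adjustment over the 9 (two-sided permutation tests of 100000 draws). The highest was that of Slc32a1 (Pearson r = 0.34, Spearman rho = 0.24, permutation p = 0.0989, adjusted p = 0.788; r = 0.42 without 129S1/SvImJ and MA/MyJ). The lowest was that of Calb1 (r = -0.18, rho = -0.23, permutation p = 0.362, adjusted p = 0.814; r = -0.13 without C57BL/6J and MA/MyJ). Pvalb, with the widest spread in accumbens, gave r = 0.25 (rho = 0.22, permutation p = 0.216, adjusted p = 0.788; r = 0.20 without C57BL/6J and PL/J).

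Within cortex, 1 array decided several extremes. The MA/MyJ cortex array, the one with spiny projection neuron genes, was highest of 29 in Gad1 (11.71, next 11.43), Slc32a1 (9.03, next 8.01) and Calb1 (10.85, next 10.30) and second in Gad2 (8.20). It was lowest in Dlx1 (4.56, next 4.92) and Dlx2 (4.62, next 4.73). It was 27th from the top of 29 in Pvalb (8.29) and in Calb2 (3.85, under log2 5) and 15th, at the median, in Lhx6 (4.75). These are the directions of accumbens for Gad1, Gad2, Slc32a1, Calb1, Dlx1 and Pvalb, the opposite one for Dlx2 and Calb2, and neither for Lhx6. The spiny score correlated with Slc32a1 over the 29 arrays (r = 0.88, rho = 0.34, permutation p = 0.00709, adjusted p over 118 relations = 0.0171), but r was 0.10 without MA/MyJ and P/J and 0.15 without MA/MyJ alone, so that relation rests on 1 array. The part of spiny neurons in the other cortex values was not tested.

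Over the 28 remaining cortex arrays, Gad2 was related to 3 other members. Gad2 and Dlx1 had r = 0.69 (rho = 0.55, permutation p = 0.00017, adjusted p = 0.00401), while over all 29 arrays r was 0.22; without 129S1/SvImJ and MA/MyJ r was 0.52. Gad2 and Slc32a1 had r = 0.55 (rho = 0.33, permutation p = 0.00314, adjusted p = 0.0293), and r = 0.33 without 129S1/SvImJ and MA/MyJ. Gad2 and Calb1 had r = 0.54 (rho = 0.55, permutation p = 0.0033, adjusted p = 0.0293), and r = 0.53 without the same 2 arrays. Dlx1 and Calb1 had r = 0.58 (rho = 0.56, permutation p = 0.00094, adjusted p = 0.0139), and again 0.58 without these 2. Over all 29 arrays Dlx1 and Calb1 had r = -0.046 (rho = 0.40, permutation test, adjusted p = 0.84), so their relation passed only without MA/MyJ. The 129S1/SvImJ cortex array was highest of 29 in Gad2 (8.22), Dlx1 (6.23) and Dlx2 (5.70), and it also had the highest oligodendrocyte mean (9.06, next 8.43), whose part was not tested. The C57BL/6J cortex array was lowest in Gad1 (10.82), Pvalb (7.82) and Calb1 (9.53). Of 36 pairs of members in cortex, 7 passed the threshold over 29 arrays and 4 over 28, with 2 in common.

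Within accumbens, 6 arrays carried high values of several members together. They were BALB/cByJ, NON/LtJ, CE/J, WSB/EiJ, SWR/J and I/LnJ, the highest in the mean of a list of septal and cholinergic genes, between 7.95 and 9.68 (next AKR/J, 7.77), with a cortex range of 4.89 to 5.90. That mean rests on 2 of the 7 listed genes, Lhx8 (5.05 to 9.64 in accumbens, at most 4.35 in cortex) and Zic1 (6.90 to 9.72 in accumbens, 6.75 to 8.77 in cortex). The defining cholinergic genes Chat, Slc5a7 and Slc18a3 were at or below log2 2.52 on every array, Zic4 was at or below 3.05, and Ngfr was above log2 5 only on the BALB/cByJ accumbens array (5.11). The spiny score was lowest in BALB/cByJ (2.52), NON/LtJ (3.87) and CE/J (3.92). The part of neighbouring tissue in the values of these 6 arrays was not tested.

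On these 6 arrays Lhx6 was between log2 6.94 and 8.82, and on the 21 others between 5.39 and 6.57. For Calb2 the corresponding ranges were 6.56 to 9.12 and 3.78 to 5.38. Both genes therefore had all of their 6 highest values there, with no overlap. The cut at 6 arrays was chosen after seeing the data, and the septal mean had no wide gap there (I/LnJ 7.95, AKR/J 7.77). The lack of overlap is thus a description and no separate support for a link with the septal genes. Pvalb was between 5.20 and 7.02 on the 6 arrays and between 2.51 and 7.61 on the others, and Calb1 was below the accumbens median on all 6, at 9.50 to 10.73. Gad1, Gad2 and Slc32a1 shifted less than Lhx6 and Calb2. Their values on the 6 arrays were 12.33 to 12.55, 10.13 to 10.55 and 10.22 to 10.70. On the other 21 they were 12.15 to 12.49 (median 12.35), 9.70 to 10.36 (median 10.15) and 9.47 to 10.36 (median 10.15). The 6 arrays held 4, 3 and 4 of their 6 highest values.

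**Figure D3:**
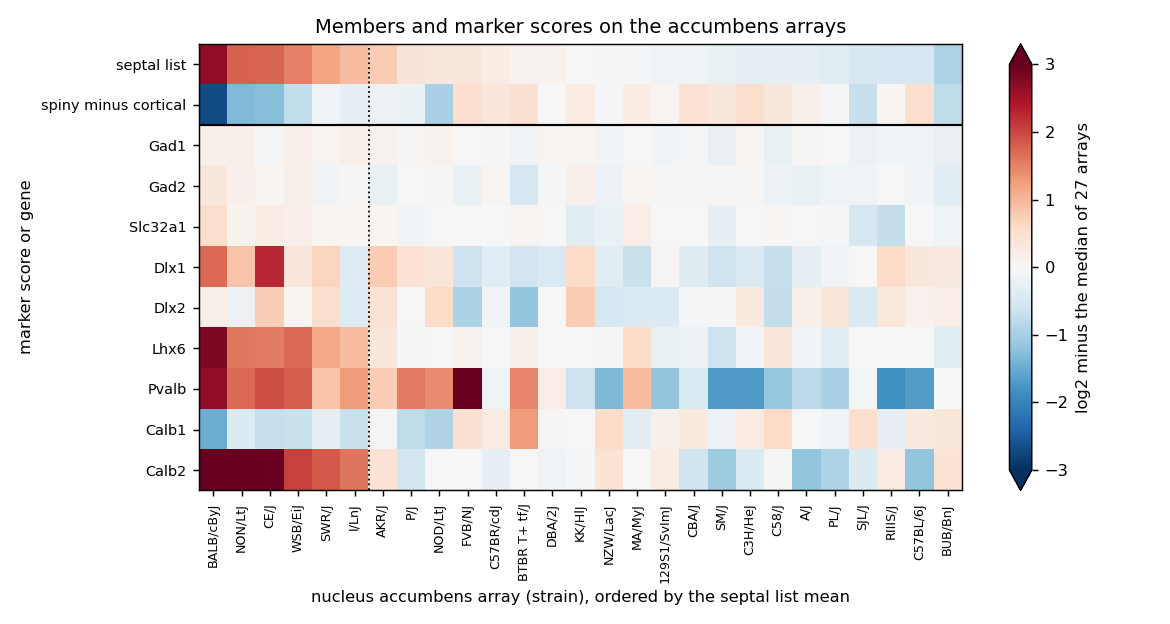
Deviation from the median of the 27 accumbens arrays (log2, colour) for the septal list mean, the spiny minus cortical score and the 9 genes (rows), with arrays (columns) ordered by the septal list mean; the dotted line closes the 6 highest arrays and colours saturate at 3. Lhx6 and Calb2 are raised on all 6, Calb1 is below its median there, and Pvalb is also high on other arrays such as FVB/NJ (7.61).

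Lhx6 correlated with the septal mean over the 27 arrays (r = 0.92, rho = 0.68, permutation p = 1e-05, the smallest these draws can give, adjusted p = 0.00015), and r was 0.85 without BALB/cByJ and NON/LtJ and 0.39 over the 21 others (adjusted p = 0.257). Calb2 gave r = 0.89 (rho = 0.65, permutation p = 1e-05, adjusted p = 0.00015), r = 0.81 without the same 2 arrays and 0.23 over the 21. For both genes the relation rests on the 6 arrays. Pvalb gave r = 0.72 (rho = 0.78, permutation p = 3e-05, adjusted p = 0.00035; r = 0.67 without the 2) and kept r = 0.60 over the 21 others (permutation p = 0.00368, adjusted p = 0.0293). These 21 arrays were chosen after seeing the data, and Pvalb was under log2 5 on 15 of them, so this value rests largely on dim levels. Gad1, whose accumbens range was narrow, gave r = 0.68 over 27 arrays (rho = 0.75, permutation p = 0.00012, adjusted p = 0.00096; r = 0.63 without the 2) and 0.68 over the 21 (permutation p = 0.00064, adjusted p = 0.0126). Calb1 ran the other way, at r = -0.66 (rho = -0.58, permutation p = 0.00025, adjusted p = 0.00155), at -0.53 without the 2 and at -0.23 over the 21. Slc32a1, Dlx1 and Gad2 also passed the threshold over 27 arrays (r = 0.66, 0.65 and 0.55, permutation tests, adjusted p = 0.0023, 0.0026 and 0.0099). Over the 21 their r was 0.38, 0.05 and 0.10, and none passed. Dlx2 did not pass over 27 arrays (r = 0.17).

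**Figure D4:**
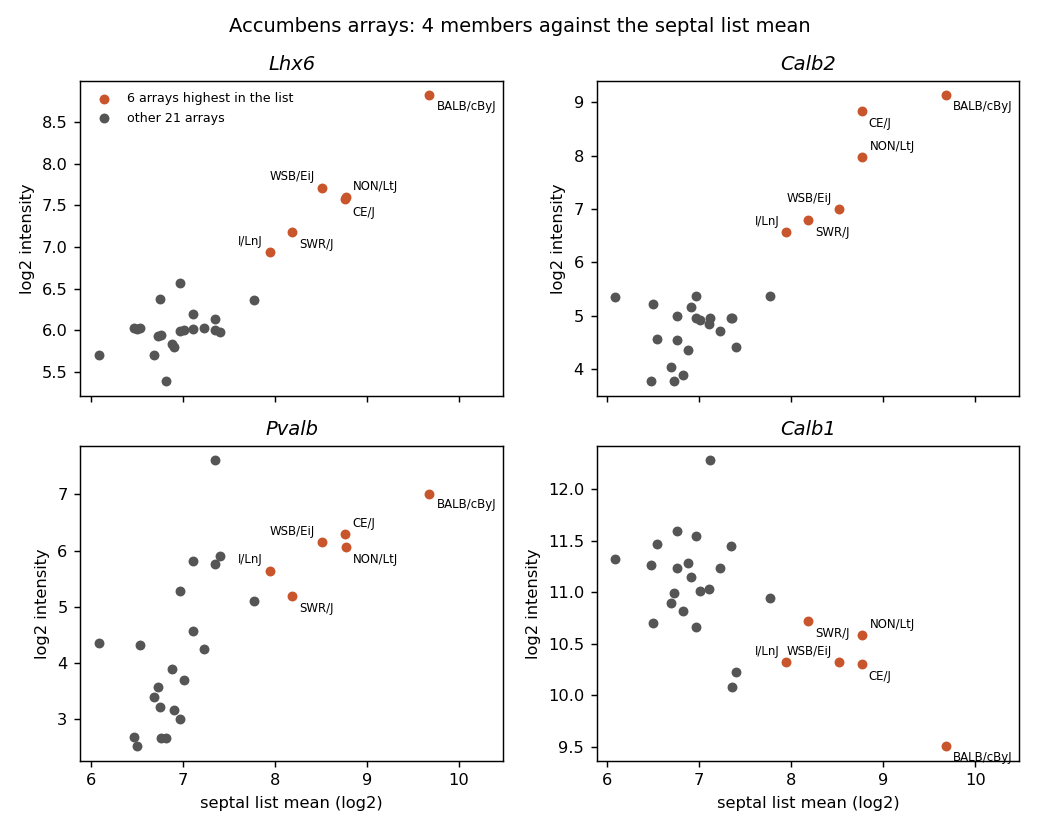
Log2 intensity of Lhx6, Calb2, Pvalb and Calb1 (y axes) against the mean log2 intensity of the septal list (x axes, 2 tested genes) on 27 accumbens arrays; each point is 1 array, with the 6 arrays highest in the list in orange and named. Over the 21 other arrays r is 0.39 for Lhx6, 0.23 for Calb2 and 0.60 for Pvalb. Of these 21 arrays, 15 are under log2 5 in Pvalb and 15 in Calb2.

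Of 36 pairs of members in accumbens, 22 passed the threshold over 27 arrays, 16 of them positive and 6 negative, and 3 over the 21 arrays, all of these among the 22. The first was Dlx1 with Dlx2 (27 arrays: r = 0.62, rho = 0.66, permutation p = 0.00045, adjusted p = 0.00231, and r = 0.63 without BALB/cByJ and CE/J; 21 arrays: r = 0.67, adjusted p = 0.0139). Dlx1 was above log2 5 on only 13 of the 27 accumbens arrays, so this relation draws largely on dim values. The second was Gad2 with Calb1, in opposite directions (27 arrays: r = -0.76, rho = -0.64, permutation p = 1e-05, adjusted p = 0.00015, and r = -0.56 without BALB/cByJ and BTBR T+ tf/J; 21 arrays: r = -0.63, adjusted p = 0.025). The third was Dlx2 with Calb1 (27 arrays: r = -0.55, rho = -0.52, permutation p = 0.00307, adjusted p = 0.00953, and r = -0.37 without BTBR T+ tf/J and FVB/NJ; 21 arrays: r = -0.66, adjusted p = 0.0148). BTBR T+ tf/J was highest in Calb1 (12.28) and lowest in Gad2 (9.70) and Dlx2 (4.77). Lhx6 with Calb2, at r = 0.92 over 27 arrays (rho = 0.68, permutation p = 1e-05, adjusted p = 0.00015), had r = 0.90 without BALB/cByJ and WSB/EiJ and 0.42 over the 21 (adjusted p = 0.228). Gad2 and Calb1 thus had positive r in cortex and negative r in accumbens; the difference between regions was not tested.

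Probe sets of the same gene showed how closely 2 measures of 1 transcript follow each other. In accumbens the 3 tested Calb1 probe sets correlated at r = 0.87 to 0.97 (rho = 0.80 to 0.98, permutation p = 1e-05 for each, adjusted p = 0.00015), the Gad1 pair at r = 0.60 (rho = 0.53, permutation p = 0.00084, adjusted p = 0.00342) and the Gad2 pair at 0.59 (rho = 0.66, permutation p = 0.00139, adjusted p = 0.00482). In cortex the Gad1 pair gave r = 0.32 (permutation p = 0.0897) and the Gad2 pair 0.17 (permutation p = 0.379), neither past the threshold, and the second Gad2 probe set was dim there.

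The genes whose pattern over arrays was most like each member's are given as a description, with Pearson r and no test, the 3 highest of all tested probe sets of other single genes. For Pvalb over 29 cortex arrays they were Kcnab3 (0.72), Vamp1 (0.71) and Lynx1 (0.70), and over 27 accumbens arrays Sgpp2 (0.89), Syt2 (0.84) and Gas6 (0.84); over the 21 accumbens arrays Vamp1 led (0.86). For Slc32a1 in cortex they were Penk (0.92), Srgap1 (0.90) and Drd1 (0.90), of which Penk and Drd1 are spiny neuron genes, and without MA/MyJ none of these 3 remained among its nearest, Coq5 (0.73) being first. For Gad2 in cortex the nearest was Reln (0.76), a gene of a class of cortical interneurons, and for Calb1 it was Ppp1r7 (0.86), followed by Gabra4 (0.85). Without MA/MyJ none of Reln, Ppp1r7 and Gabra4 remained among the nearest 3. Thoc1 (0.78) was then first for Gad2 and Rbak (0.78) for Calb1. In accumbens the nearest genes were Sacm1l (0.95), Epm2aip1 (0.95) and Shh (0.95) for Lhx6, Nap1l5 (0.96), Podxl2 (0.96) and Capza1 (0.95) for Calb2, Gcnt2 (0.88) for Calb1 and AI504432 (0.87) for Dlx1. None of the nearest 3 of Lhx6 or Calb2 was among the nearest 3 over the 21 arrays, whereas Gcnt2 stayed first for Calb1 (0.86).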

How the data were processed

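The authors deposited 1 linear intensity value for each of 45015 probe sets on each of 56 arrays. The submitters' processing notes name GCRMA, with a version not given in the sources used here. GCRMA shrinks dim values, so levels under log2 5 have little meaning. The 64 controls were left out. In the platform's annotation 34880 probe sets carried a single gene symbol and 923 carried several; all 18 member probe sets matched RefSeq by gene identifier with 0 symbols changed.

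Values were turned to log2 with no pseudocount. limma 3.58.1 in R 4.3.3 (lmFit, eBayes) was fitted to 16056 probe sets on 54 arrays of 27 strains with region and strain terms, since the design text says that both regions came from the same brains; as a check, 21 of 27 cortex arrays had their highest correlation with the accumbens array of the same strain. A fold against a region mean under log2 5 was computed against log2 5 and written "at least". Lists were represented by each gene's brightest tested probe set. Genes named from them were the up to 4 with the largest region difference past the threshold and those past the strain threshold, with the 3 nearest genes per member and region; Glul, Sst, Npy, Nos1, Dlx5, Kcnc1, S100a10, Nr2f1 and Reln were named in addition after their values were seen. Correlations and permutation tests used numpy 2.4.6, scipy 1.17.1 and pandas 2.3.3 under Python 3.11.15, and plots matplotlib 3.10.9. Both were tested on simulated data. The members and lists were chosen with earlier results of these data known. The labels do not say that strains' pools had repeats, so p-values measure the spread between single pools.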

Additional observations from a re-analysis of the deposited data

How the results depend on the processing

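Of 509 region differences of the tested member probe sets under other settings, 502 kept their direction and side of the threshold, 7 lost the call, all of Dlx1, and 0 reversed. The count lower in accumbens, 2 as reported, was 4 with no filter (over 18 probe sets, the 2 added being dim Slc32a1 ones), 1 with a filter at log2 7, 1 at a threshold of 0.01, and 1 to 2 when each strain was left out in turn. The count higher, 10, was 6 with the brightest probe set per gene, which tests 8. With no filter it also took in Calb2 and a dim probe set each of Slc32a1, Lhx6 and Calb1. Dim Slc32a1 probe sets were thus called in both directions, the higher one at a difference of only 0.05. The filters and the brightest probe set per gene changed how many probe sets were tested; at 0.01 and in the leave-outs the same 12 were tested, and the call lost was that of Dlx1. Without the replicate block, that is without strain as a block, the counts stayed at 10 and 2 (Dlx1: -0.33, limma adjusted p = 0.0373). The strain count stayed 0 in every setting run.

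Of the correlations past the threshold (13 in cortex, 41 in accumbens), those that changed sign were: in cortex, the spiny score with Calb1 (-0.15 without the 2 farthest arrays); in accumbens without the 6 arrays highest in the septal list, a setting chosen after seeing the data, Gad2 with Lhx6 (-0.14) and Calb2 (-0.21), Slc32a1 with Calb2 (-0.062), Dlx1 with Lhx6 (-0.063), Calb1 with Lhx6 (0.13) and Calb2 (0.15), and the spiny score with Gad2 (0.10) and Lhx6 (0.12). The cause was not tested. Of the relations not past the threshold, 18 changed sign in cortex without MA/MyJ and 10 in accumbens without the 6 arrays. With region means under log2 5 set to it, the median of the fast-spiking list was -0.40 in place of -0.41, and those of the other 4 gene lists were the same. One array per strain and region, and intensities near background for Dlx1, Dlx2, Calb2, Lhx6 in cortex and Pvalb in accumbens, limit the precision.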

Other observations

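MRL/MpJ and NZO/HILtJ, measured in cortex only and in no comparison between regions, lay inside the range of the other cortex arrays for Gad1, Gad2, Slc32a1 and Calb1. NZO/HILtJ had the second lowest cortex value of Pvalb (8.12), after C57BL/6J.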
